A study of Mus musculus with 6 samples.

Results

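Chymotrypsins and elastases are serine proteases that the acinar cells of the pancreas make as inactive zymogens, store in granules and release into the duodenum. Trypsin cuts and activates them there, after which chymotrypsins cleave proteins mainly next to large aromatic or hydrophobic residues and elastases mainly next to small ones. Their genes are among the best known targets of PTF1, a complex in which the basic helix-loop-helix factor PTF1A and a partner such as TCF12 or TCF3 bind an E-box, while RBPJL or RBPJ binds a neighboring TC-box. The genes described here are the 6 chymotrypsin and elastase genes selected by symbol from a table of 10245 genes. Their values were not part of the selection rule, but earlier results of these data were known. The chymotrypsin family was represented by Ctrb1, Ctrc and Ctrl, and the elastase family by Cela1, Cela2a and Cela3b.

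RNA was sequenced from whole adult mouse pancreata, 3 from control mice and 3 from Ptf1a cKO mice. Control mice were Ptf1a CreER/+ and Ptf1a cKO mice were Ptf1a CreER/fl, and both genotypes received 0.25 mg/g tamoxifen on 3 days and were sacrificed on day 14. The CreER allele sits in the Ptf1a locus, so that Cre is driven in acinar cells and the control mice have 1 working copy of Ptf1a. According to the study's methods, the mice also carried a Cre-activated EYFP reporter. Control mice were 4 months old and Ptf1a cKO mice 5 months old, and age and genotype therefore cannot be told apart. Each group held 1 male (control replicate 1 and Ptf1a cKO replicate 2) and 2 females. The samples are labelled as separate mice, and the 3 mice per group are the replicates that set the precision. Sequencing depth cannot be read from the normalized values, although the study's methods give the uniquely aligned reads of each library.

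Ptf1a, the deleted gene, had normalized read counts of 566, 601 and 652 in the control libraries and 19.8, 70.1 and 10.2 in the Ptf1a cKO libraries. It fell by 4.41 on the log2 scale (SE 0.49, limma adjusted p = 3.29e-04), and its highest value among the mutants was in replicate 2. The 6 library medians over genes were 125.0 to 128.5 normalized counts, whereas the sum over genes was 17949900 to 21175800 in control and 5527100 to 8981110 in Ptf1a cKO libraries. Among acinar markers that are not enzymes, 6 of 8 fell, and the summed level of the 8 was 553896 to 562104 in control and 293202 to 396391 in Ptf1a cKO libraries. Most of the mutant sum was Dmbt1, which had 134041 to 170700 normalized counts in control and 242639 to 261473 in Ptf1a cKO libraries and did not pass the test (limma adjusted p = 0.151). Without Dmbt1 the sum was 391404 to 419855 against 50563 to 151849. Markers of other cells moved as well: 2 of 5 ductal markers in the table rose (Sox9 and Spp1; summed level 1854 to 2621 against 22194 to 106392, and 528 to 663 against 1041 to 1224 without Spp1), as did 5 of 6 fibroblast markers (2655 to 2993 against 5082 to 9661), 4 of 5 leukocyte markers (366 to 651 against 1007 to 2171) and 4 of 4 gastric chief cell genes (2430 to 4295 against 132090 to 412686). None of 4 endothelial markers (525 to 676 against 514 to 641) or 6 endocrine markers (10398 to 39430 against 5318 to 30879) passed the test. None of 9 neutrophil and mast cell markers, among them the neutrophil elastase gene Elane and the mast cell chymase gene Cma1, had an entry in the table. By the same test, 16.8% of all genes fell and 17.1% rose. The part of these markers in the results below was not tested. In whole pancreas, fewer acinar cells and less RNA per acinar cell cannot be told apart.

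The sequences 5' of the start sites are shown because PTF1 is known to act there in acinar genes. They are the 250 bases before the RefSeq start in build GRCm38.p6, each 5' to 3' on the strand of the gene. Capitals mark the E-box letters CANNTG and the TC-box letters TGGGAA, the latter on either strand, so that TTCCCA is a TC-box read on the other strand.
Ctrb1, chr8:111691011-111691260, minus strand: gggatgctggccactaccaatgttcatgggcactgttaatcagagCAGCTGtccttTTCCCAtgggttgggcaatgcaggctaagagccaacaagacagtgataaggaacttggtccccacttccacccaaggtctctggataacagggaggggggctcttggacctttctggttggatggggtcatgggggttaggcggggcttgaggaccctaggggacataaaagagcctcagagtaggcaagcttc
Ctrl, chr8:105933863-105934112, minus strand: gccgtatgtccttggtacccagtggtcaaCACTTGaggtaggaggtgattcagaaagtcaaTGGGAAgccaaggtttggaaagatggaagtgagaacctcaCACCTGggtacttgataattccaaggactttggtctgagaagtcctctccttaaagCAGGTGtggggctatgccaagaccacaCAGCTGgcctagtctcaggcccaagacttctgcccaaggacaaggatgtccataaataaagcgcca
Cela1, chr15:100687921-100688170, minus strand: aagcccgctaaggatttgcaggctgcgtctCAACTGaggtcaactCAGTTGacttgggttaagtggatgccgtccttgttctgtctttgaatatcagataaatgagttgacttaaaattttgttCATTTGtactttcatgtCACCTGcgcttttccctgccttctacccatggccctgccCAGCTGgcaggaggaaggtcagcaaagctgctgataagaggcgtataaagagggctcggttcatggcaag
Cela2a, chr4:141826006-141826255, minus strand: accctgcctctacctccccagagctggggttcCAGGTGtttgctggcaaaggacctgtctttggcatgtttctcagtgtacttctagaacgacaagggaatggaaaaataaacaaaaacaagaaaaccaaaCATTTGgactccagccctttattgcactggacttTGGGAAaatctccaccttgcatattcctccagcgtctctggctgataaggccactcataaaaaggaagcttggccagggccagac
Cela3b, chr4:137430521-137430770, minus strand: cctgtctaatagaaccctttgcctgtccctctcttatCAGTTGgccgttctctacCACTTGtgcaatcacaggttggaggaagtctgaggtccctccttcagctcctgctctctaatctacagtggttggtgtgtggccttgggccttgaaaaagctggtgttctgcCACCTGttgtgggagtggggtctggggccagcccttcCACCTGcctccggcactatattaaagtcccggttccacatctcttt

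All 5 of these windows held an E-box, which 66.2% of 32851 RefSeq windows of this length also held. The E-box form CACCTG, searched on both strands, was in 4 of 5 (17.2% of all windows), namely in Ctrl, Cela1, Cela2a and Cela3b. The TC-box TGGGAA was in 3 of 5 (21.6% of all windows). An E-box and a TC-box that started within 40 bases of each other were in the Ctrb1, Ctrl and Cela2a windows. Of all windows, 7.22% held such a pair. The limit of 40 bases was set for this count. The starts lay 11 bases apart in Ctrb1, 34 in Cela2a, and 32 and 40 in Ctrl. In Ctrb1 the E-box CAGCTG began 205 bases and the TC-box 194 bases before the start. In Cela2a the E-box CATTTG began 119 and the TC-box 85 bases before it. In Ctrl the TC-box began 189 bases before the start, with the E-boxes CACTTG and CACCTG beginning 221 and 149 bases before it. The Cela1 and Cela3b windows held 5 and 4 E-boxes but no TGGGAA. Only these exact letters were searched, so a TC-box with other letters was not counted in any window. These matches describe letters and are not evidence of binding.

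Transcripts of chymotrypsins and elastases were separated between the groups for 6 of 6 genes, with each mutant library below the lowest control. Of all genes, 24.3% were separated in this direction and 50.8% in either direction. Of the 6, 5 fell with an adjusted p under 0.05 (Ctrc, Ctrl, Cela1, Cela2a and Cela3b), where 33.9% of all 10245 genes were called, 16.8% lower and 17.1% higher (limma on log2 values, Benjamini-Hochberg adjustment over all genes). The median log2 fold change of the 6 was -2.51, beside 0.04 over all genes. For a single gene, the exact permutation test over 3 against 3 libraries gave p = 0.10 in each case, the smallest two-sided value this design allows.

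**Figure D1:**
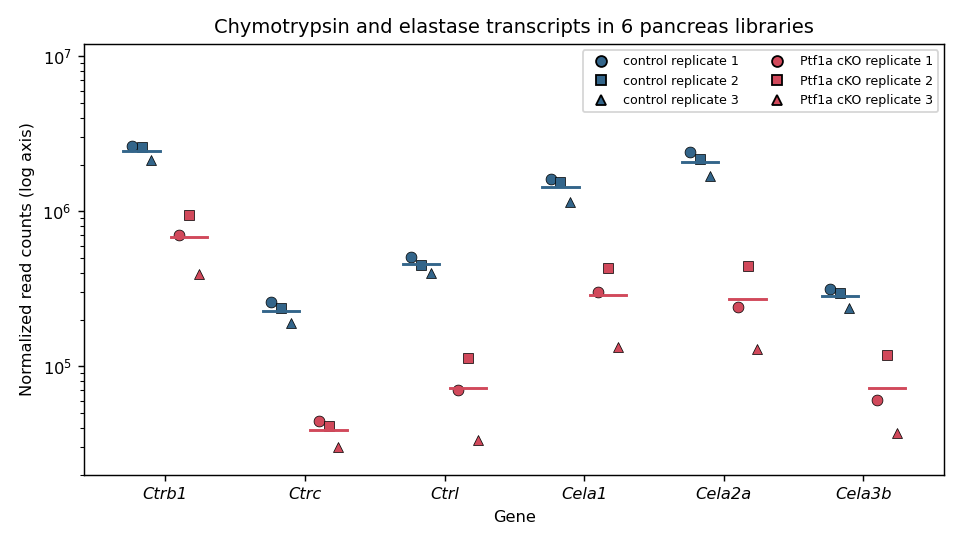
Normalized read counts (log axis) of the 6 genes in each of the 3 control and 3 Ptf1a cKO libraries, 1 point per library with the replicate number as its shape. Every mutant point lies under every control point of the same gene, and replicate 3 is the lowest mutant library for all 6.

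Ctrb1, which encodes chymotrypsinogen B, was the gene with the highest mean value of the whole table in both groups. Its normalized read counts were 2625118, 2604565 and 2146285 in control and 705847, 948031 and 392495 in Ptf1a cKO libraries. The groups did not overlap, and the highest mutant library held 44.2% of the lowest control library. The mean was 2458656 ± 270717 (SD, n = 3) in control and 682124 ± 278527 in Ptf1a cKO pancreata, or 27.7% of control. The log2 fold change of -1.93 (SE 0.79, 95% CI -3.71 to -0.16) did not pass the adjusted threshold (limma adjusted p = 0.0864). Mutant libraries varied more than control libraries, with an SD of log2 values of 0.65 against 0.17. Among the 6 genes, however, only Ctrc had a smaller mutant SD (0.30). Ctrl, Cela1, Cela2a and Cela3b had larger ones (0.84 to 0.89) and passed, while the SE of Ctrb1 was the largest of the 6. Without Ptf1a cKO replicate 2, the library with the highest value of Ptf1a among the mutants, the log2 fold change was -2.22 and passed (limma adjusted p = 0.0111). It also passed with limma fitted without a trend (adjusted p = 0.00451) or with robust estimation (adjusted p = 0.0192). A minimum mean of 5 gave limma adjusted p = 0.0493. In the other 15 alternative settings Ctrb1 did not pass. Of the 6 fits that each left out 1 library, it passed in 1, and limma adjusted p reached 0.248 in the others.

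Ctrc encodes chymotrypsin C, known for trimming and degrading trypsinogen and other zymogens. Its normalized read counts were 259194, 237138 and 190335 in control and 44773, 41273 and 30154 in Ptf1a cKO libraries. Among the 6 genes its mutant values lay closest together, with an SD of log2 values of 0.30 against 0.23 in control. It fell from 228889 ± 35163 to 38733 ± 7633 (SD, n = 3), which left 16.9% of control (log2 fold change -2.57, SE 0.32, 95% CI -3.29 to -1.85, limma adjusted p = 5.49e-04). In the other 5 genes the mutant order was replicate 2, then 1, then 3, whereas Ctrc was highest in replicate 1. The current RefSeq annotation lists mouse Ctrc as a transcribed pseudogene and GENCODE as protein coding.

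Ctrl encodes chymotrypsin-like protease, a minor acinar protease related to chymotrypsin. It had 511095, 449281 and 403072 normalized read counts in control and 70489, 113011 and 33766 in Ptf1a cKO libraries. All mutant values were below the control range, and they varied more on the log2 scale (SD 0.88 against 0.17). Ctrl fell from 454483 ± 54199 to 72422 ± 39658 (SD, n = 3), leaving 15.9% (log2 fold change -2.81, SE 0.49, 95% CI -3.92 to -1.70, limma adjusted p = 0.00284). Ctrl and Ctrb1 both lie on chromosome 8 and had both an E-box and a nearby TC-box in the windows printed above.

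Among the elastases, Cela2a, which encodes chymotrypsin-like elastase 2A, had 2402698, 2170301 and 1687143 normalized read counts in control and 239883, 442942 and 129729 in Ptf1a cKO libraries. It had rank 2 by mean value of all genes in control and rank 5 in Ptf1a cKO pancreata. The mean fell from 2086714 ± 365027 to 270852 ± 158886 (SD, n = 3), or 7.70-fold. With a log2 fold change of -3.11 (SE 0.69, 95% CI -4.67 to -1.54, limma adjusted p = 0.00896), Cela2a had the most negative estimate of the 6, at rank 17 of all genes by log2 fold change. Of the 50-base words in its GENCODE transcript, 25.6% also occurred in annotated Ctrc transcripts, whose span covers the Cela2a locus, and the effect on read assignment was not tested.

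Cela1 encodes chymotrypsin-like elastase 1, the classical pancreatic elastase of rodents. It had 1626206, 1551126 and 1156429 normalized read counts in control and 303502, 432892 and 134127 in Ptf1a cKO libraries. It had rank 4 of all genes by mean value in both groups. Cela1 fell from 1444587 ± 252360 to 290174 ± 149828 (SD, n = 3), to 20.1% of control (log2 fold change -2.46, SE 0.66, 95% CI -3.96 to -0.96, limma adjusted p = 0.0203). This call depended on single libraries. Leaving out control replicate 1, 2 or 3 or Ptf1a cKO replicate 1 gave limma adjusted p = 0.0836, 0.0881, 0.0741 and 0.0681, with log2 fold changes from -2.61 to -2.36.

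Cela3b encodes chymotrypsin-like elastase 3B, an enzyme with little elastin-cleaving activity in spite of its name. It had 314165, 298177 and 237882 normalized read counts in control and 60444, 118429 and 37377 in Ptf1a cKO libraries. The groups were separate, and replicate 2 held the most Cela3b of the mutants. Cela3b fell from 283408 ± 40229 to 72083 ± 41760 (SD, n = 3), to 25.4% of control (log2 fold change -2.13, SE 0.46, 95% CI -3.17 to -1.08, limma adjusted p = 0.00789). Its neighbor Cela3a, listed under the older symbol Gm13011, is a close copy: 33.2% of the 50-base words of Cela3b also occur in Cela3a, and 91.6% of bases are the same over 237 aligned positions of the windows before their starts. Gm13011 had 696, 472 and 400 normalized read counts in control and 71.1, 148 and 30.5 in Ptf1a cKO libraries, 0.0815% to 0.222% of the Cela3b value in the same library. It fell by 2.82 on the log2 scale (SE 0.45, limma adjusted p = 0.00187). The table keeps alignments that were not unique in an entry of their own, apart from the gene values, so the separate values of these copies leave out reads that match both.

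**Figure D2:**
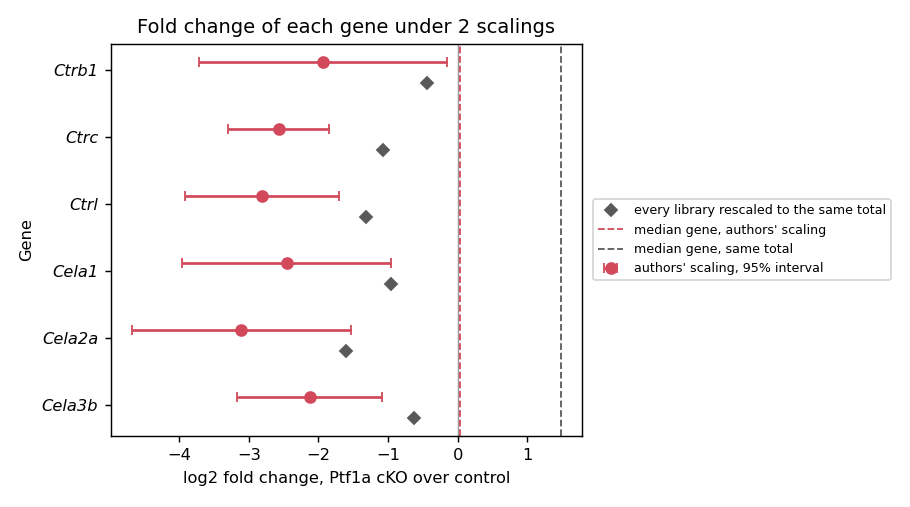
Log2 fold change of each of the 6 genes, Ptf1a cKO over control, with its 95% interval from limma (circles), and the value after every library was rescaled to the same total (diamonds). Dashed lines show the median of all genes under each scaling, 0.04 and 1.48, and all 6 genes lie to the left of both lines.

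The size of these changes depends on how libraries are made comparable. When every library was rescaled to the same total, the median of all genes moved to 1.48 and the log2 fold changes ran from -0.44 for Ctrb1 (adjusted p = 0.142) to -1.61 for Cela2a, with Ctrc, Ctrl, Cela1, Cela2a and Cela3b past the limma threshold and 1.26% of all genes lower. Relative to the median gene, the 6 values were between -3.14 and -1.97 with the authors' scaling and between -3.09 and -1.92 with equal totals. With libraries set to equal totals outside the digestive enzymes, the median gene was at -0.11 and the log2 fold changes were -3.25 to -2.08.

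The male mouse had the highest value of its group for 6 of 6 genes in control and for 5 of 6 in Ptf1a cKO pancreata, all but Ctrc. With sex as a covariate, the 5 called genes had limma adjusted p from 7.36e-04 (Ctrc) to 0.0177 (Cela1), and Ctrb1 had 0.0770. With 1 male per group, a difference between the sexes cannot be told apart from one between single mice.

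To compare levels between genes, normalized counts were divided by transcript length and are given per base of transcript. In control pancreata Ctrb1 had the highest level at 2800 ± 308 normalized counts per base (SD, n = 3), followed by Cela2a at 1950 ± 341 and Cela1 at 1300 ± 228. The 3 genes did not overlap in range, with Ctrb1 at 2440 to 2990, Cela2a at 1580 to 2250 and Cela1 at 1040 to 1470. Ctrl followed at 517 ± 61.7, above Cela3b at 306 ± 43.4 and Ctrc at 241 ± 37.0 normalized counts per base. The ranges of Cela3b (257 to 339) and Ctrc (200 to 273) overlapped between libraries. Within each control library, however, Cela3b was above Ctrc. In Ptf1a cKO pancreata Ctrb1 again led, at 777 ± 317 normalized counts per base and a range of 447 to 1080, clear of all others. Cela1 at 262 ± 135 (121 to 391) and Cela2a at 253 ± 148 (121 to 414) were not separated, nor were Ctrl at 82.4 ± 45.1 (38.4 to 129) and Cela3b at 77.8 ± 45.1 (40.4 to 128). The range of Ctrc, at 40.7 ± 8.03 normalized counts per base, overlapped both (31.7 to 47.1). Within each mutant library, however, Ctrc was below Ctrl and Cela3b.

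The 6 genes together made up 36.54%, 34.74% and 32.43% of the summed normalized counts of all genes in the control libraries and 19.91%, 23.34% and 13.71% in the Ptf1a cKO libraries. This share does not depend on the scaling of libraries, and the groups did not overlap. It was 34.6 ± 2.06% (SD, n = 3) in control and 19.0 ± 4.88% in Ptf1a cKO pancreata, a difference of -15.6 percentage points. Chymotrypsins had 15.6 ± 0.386% against 10.7 ± 2.13%, and elastases 18.9 ± 1.68% against 8.32 ± 2.81%. Alignments that were not unique made up 74.4% to 81.1% of all entries in a library, and with every entry that names no gene included, the share of the 6 was 8.21% against 3.70%. Within the sum of the 6, elastases supplied 56.1%, 55.0% and 52.9% in control and 42.4%, 47.4% and 39.8% in Ptf1a cKO libraries. Ctrb1 alone supplied 33.9%, 35.6% and 36.9% in control and 49.5%, 45.2% and 51.8% in Ptf1a cKO libraries, while Cela2a went from 29.0% to 31.0% in control to 16.8% to 21.1%.

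**Figure D3:**
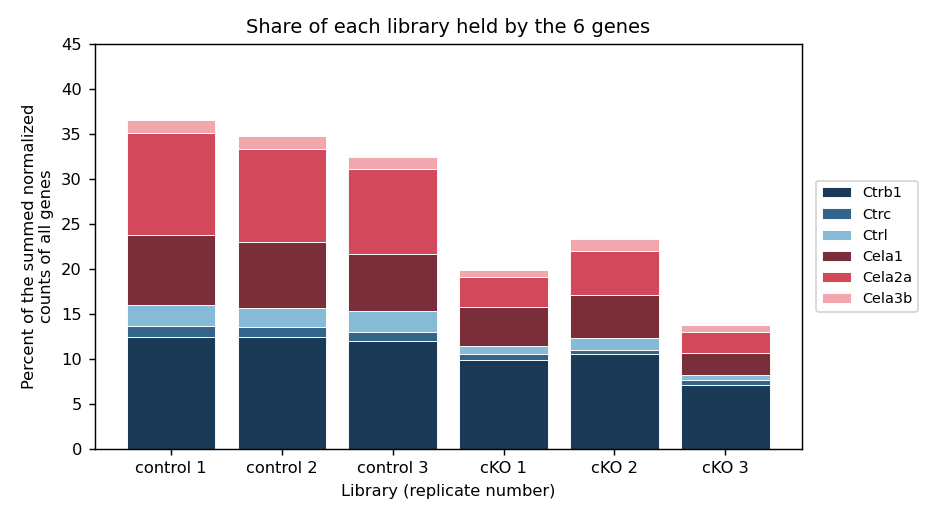
Stacked bars of the percent of all summed normalized counts taken by each of the 6 genes, 1 bar per library. The bars reach 32.43% to 36.54% in control and 13.71% to 23.34% in Ptf1a cKO libraries, and the Cela2a segment is smaller in each mutant bar.

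Ratios between 2 genes of the same library are free of library scaling, and 2 genes that change alike keep their ratio. Of the 15 pairs, 9 (60.0%) had ratios that did not overlap between groups, near the 51.5% of all pairs of genes in the table. For each of the 9 the exact permutation test gave p = 0.10 (0.167 after Benjamini-Hochberg adjustment over 15 pairs), the smallest possible, so that no pair passed a threshold and the ratios are given as values. The log2 ratio of Ctrb1 to Cela2a was 0.13, 0.26 and 0.35 in control and 1.557, 1.098 and 1.597 in Ptf1a cKO libraries. The ratio was higher in each mutant library than in any control, and it was 2.25-fold higher in the mean. Ctrb1 was also higher in Ptf1a cKO pancreata against Ctrl (1.83-fold), Ctrc (1.55-fold) and Cela1 (1.44-fold).

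Among elastases, the log2 ratio of Cela2a to Cela3b was 2.94, 2.86 and 2.83 in control and 1.99, 1.90 and 1.80 in Ptf1a cKO libraries, 1.97-fold lower. Cela1 to Cela2a was -0.56, -0.48 and -0.54 in control and 0.34, -0.03 and 0.05 in Ptf1a cKO libraries, 1.57-fold higher. The ratios of Cela2a to Ctrb1, Ctrl, Cela1 and Cela3b were each lower in the mutants without overlap, with the smallest of these differences against Ctrl (1.23-fold). Ctrl was lower against Cela3b (log2 difference -0.68) and Cela1 (-0.35). The 6 pairs with overlapping ratios were Ctrb1 with Cela3b (log2 difference 0.19, exact p = 0.40), Cela1 with Cela3b (-0.33, exact p = 0.20) and Ctrc with Ctrl, Cela1, Cela2a or Cela3b (-0.45 to 0.54, exact p from 0.30 to 0.70). In the pairs with Ctrc, Ptf1a cKO replicate 2 stood apart: Ctrc to Cela3b was -0.43 and -0.31 in replicates 1 and 3 but -1.52 in replicate 2, beside -0.33 to -0.28 in control. Leaving out 1 library at a time gave 9 to 12 separated pairs.

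**Figure D4:**
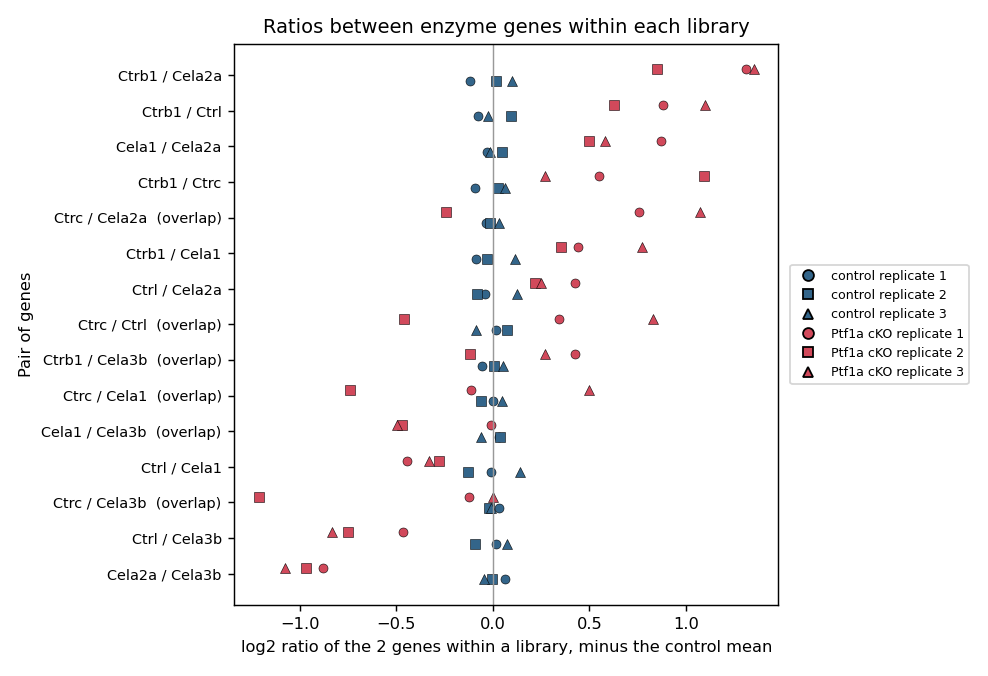
Log2 ratio of each of the 15 gene pairs minus its control mean, 1 point per library (blue for control, red for Ptf1a cKO, replicate number as shape), with overlapping pairs marked. The groups are separate for 9 pairs, with the widest gap in the mean for Ctrb1 to Cela2a (1.17 on the log2 scale).

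Ratios to enzymes of other classes were taken in the same way, with the trypsinogen gene Prss2, the carboxypeptidase gene Cpa1 and the lipase gene Pnlip. Of these 18 pairs, 9 (50.0%) were separated, no more than the 51.5% of all pairs of genes, each with exact permutation p = 0.10 (0.20 after adjustment over 18). The values are therefore a description. Cela2a was lower against each of them, by 1.55-fold against Prss2, 1.44-fold against Cpa1 and 2.10-fold against Pnlip, with no overlap between groups. Ctrb1 was higher against Prss2 (1.45-fold) and Cpa1 (1.57-fold), and its ratio to Pnlip overlapped. Cela3b was likewise higher against Prss2 (1.27-fold) and Cpa1 (1.37-fold). Ctrl was lower against Prss2 (1.26-fold) and Pnlip (1.71-fold). Ratios of Cela1 and Ctrc overlapped between groups for all 3 enzymes, with log2 differences of -0.42 to 0.13 for Cela1 and -0.54 to 0.01 for Ctrc.

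Other genes of the chymotrypsin fold were described from a list of 55, of which 33 had an entry in the table. In Ptf1a cKO pancreata 11 of the 33 fell (16.8% of all genes fell), 12 rose (17.1% of all genes) and 10 did not pass the test, with a median log2 fold change of 0.02. Those that fell were mainly acinar enzymes, namely Gm13011, the trypsinogen genes 2210010C04Rik, Prss2, Try10, Try5, Gm5409 and Try4, and the tissue kallikreins Klk1 and Klk1b5. Prss2 had 897179, 888662 and 845743 normalized read counts in control and 164552, 260657 and 91694 in Ptf1a cKO libraries, a log2 fold change of -2.47 (limma adjusted p = 0.00889). 2210010C04Rik changed by -2.75 and Klk1 by -2.09, close to the chymotrypsins and elastases, while Try10, Klk1b5, Try5, Gm5409 and Try4 ranged from -2.05 to -1.42. The trypsinogen genes Prss3 (-0.89), Prss1 (-0.51), Gm10334 (-0.22) and Gm5771 (0.02) did not pass. Trypsinogen genes are near-identical copies, so their separate values, which leave out alignments that were not unique, are uncertain. Gm5409 overlapped between groups, and 2 trypsinogen calls were lost without single libraries, Gm5409 without control replicate 1 or 2 or Ptf1a cKO replicate 1 or 3, and Try4 without control replicate 1, 2 or 3 or Ptf1a cKO replicate 1. Masp2, a complement protease (-0.96), and Prss8, which encodes prostasin (-0.88), also fell, but their direction and that of Try4 turned when libraries were scaled to equal totals. The call for Masp2 was lost without control replicate 1 or 2 or Ptf1a cKO replicate 1 or 2.

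None of the 12 serine protease genes that rose is known as an acinar zymogen gene. Complement components made up 6 of them: Cfi (3.71 on the log2 scale), Cfd (3.24), Cfb (1.92), C2 (1.33), C1s (0.96) and C1ra (0.86). Cfi was near the bottom of the scale in control, with 2.41, 5.69 and 1.20 normalized counts against 76.9, 38.6 and 158 in Ptf1a cKO libraries, so its fold change depends on the pseudocount of 3.41 normalized counts. The membrane-anchored proteases Tmprss2 (2.70), Tmprss4 (1.28) and St14, which encodes matriptase (0.53), rose as well. Tmprss2 had 124, 122 and 94.8 normalized counts in control and 756, 787 and 717 in Ptf1a cKO libraries (SE 0.13, limma adjusted p = 8.75e-06). The remaining 3 were Prss23 (1.26), the HGF activator gene Hgfac (0.66) and Htra1 (0.65). St14 lost its call without control replicate 2 (limma adjusted p = 0.0563). The 33 genes summed to 2180750 to 2290260 normalized counts in control and 277010 to 713699 in Ptf1a cKO libraries.

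Inhibitors that act on serine proteases were described from a list of 43, of which 19 had an entry in the table. Of these, 5 fell, 5 rose and 9 did not pass, beside 16.8% lower and 17.1% higher of all genes, with a median log2 fold change of 0.27. Spink3, the trypsin inhibitor packed with the zymogens, had 10985, 11820 and 9010 normalized read counts in control and 2286, 3804 and 1695 in Ptf1a cKO libraries (log2 fold change -2.10, SE 0.27, limma adjusted p = 6.34e-04). Serpini2, the pancreas-enriched serpin pancpin, had 13283, 13226 and 10509 in control and 1180, 2953 and 963 in Ptf1a cKO libraries (log2 fold change -3.03, SE 0.36, limma adjusted p = 4.47e-04). Serpinb1a, an inhibitor of elastase-like and chymotrypsin-like proteases, fell by 2.99 on the log2 scale (SE 0.26, limma adjusted p = 1.13e-04), from 1385 to 1588 down to 141 to 304 normalized counts. The estimates of these 3 inhibitors lay within those of the 6 enzymes, which ran from -3.11 to -1.93. The smaller falls of Spint1 (-1.21) and Serpini1 (-0.95), which encode a Kunitz-type inhibitor and neuroserpin, turned to higher values with equal totals, and Serpini1 lost its call without control replicate 2 or 3 or Ptf1a cKO replicate 3.

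The inhibitor genes that rose were Serpina3n (2.11), Ambp, which encodes bikunin (1.84), Serpina10, an inhibitor of coagulation factors (1.54), the leukocyte protease inhibitor gene Slpi (1.04) and the complement inhibitor gene Serping1 (0.82). Serpina3n, known as an inhibitor of granzymes and leukocyte proteases, lost its call without control replicate 2, where it was 2.86 beside 23.9 and 28.9 normalized counts, and also without Ptf1a cKO replicate 1 or 3. Leukocyte markers were higher in the same libraries, as given above, and their part in this result was not tested.

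**Figure D5:**
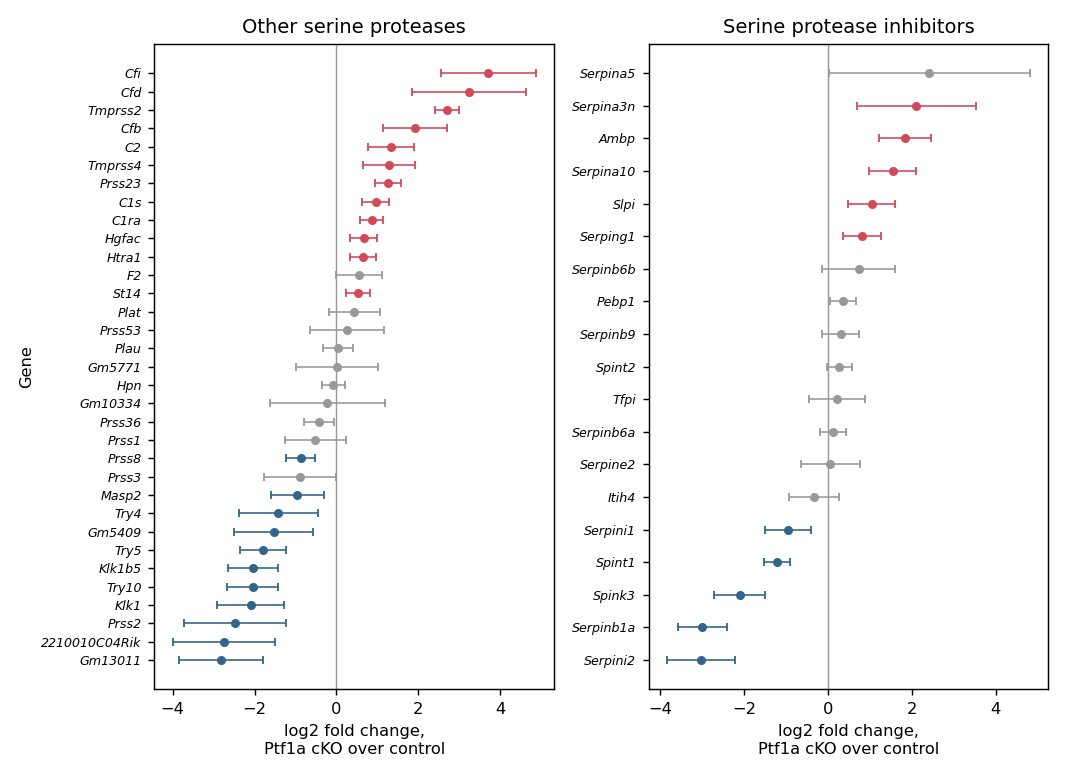
Log2 fold changes (Ptf1a cKO over control, with 95% intervals from limma) of the 33 other serine proteases and the 19 protease inhibitors in the table, red for genes that rose, blue for genes that fell and grey for those that did not pass. The proteases run from Gm13011 at -2.82 to Cfi at 3.71, and the inhibitors Serpini2, Serpinb1a and Spink3 lie between -3.03 and -2.10.

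Of 12 listed regulators of acinar genes, 4 fell (Ptf1a, Rbpjl, Bhlha15 and Nr5a2), Tcf12 rose and 7 did not pass. Of all genes, 16.8% were called lower and 17.1% higher. Rbpjl, the acinar subunit of PTF1, had 8430, 8194 and 7792 normalized read counts in control and 1161, 3868 and 1029 in Ptf1a cKO libraries (log2 fold change -2.29, limma adjusted p = 0.00356). Replicate 2, the male, was the highest mutant for Ptf1a, Rbpjl, Bhlha15 and 5 of the 6 enzymes, but the lowest for Nr5a2. Bhlha15, which encodes the secretory regulator MIST1, fell by 2.19 (limma adjusted p = 0.00146). Nr5a2, a nuclear receptor known to act with PTF1, changed from 444 to 469 down to 194 to 239 normalized counts (log2 fold change -1.05, limma adjusted p = 3.08e-04), a direction that turned with equal totals. Tcf12, a partner of PTF1A, was higher by 0.74 (limma adjusted p = 0.00310).

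The genes most like the mean log2 profile of the 6 enzymes over the 6 libraries were found by Pearson correlation. They were Nars (r = 0.9996), Bmp3 (0.9993), Ak3 (0.9992), Surf2 (0.9986) and Hsbp1l1 (0.9984). Nars, which encodes a transfer RNA synthetase, changed by -0.96, the growth factor gene Bmp3 by -1.86 and the adenylate kinase gene Ak3 by -0.88 on the log2 scale. Surf2 changed by -1.03 and Hsbp1l1 by -1.77. The most opposite genes were Msrb2 (r = -0.9964), Erlin2 (-0.9948), Ccdc82 (-0.9945), Syt7 (-0.9943) and Galnt4 (-0.9940), of which Msrb2, at 0.39 on the log2 scale, did not pass the test (limma adjusted p = 0.156). A correlation of at least 0.99 was reached by 124 of the 10239 other genes. Ctrc had the lowest correlation of the 6 with their own mean (0.9754), and the others had 0.9914 to 0.9992. Ptf1a had 0.9875, Bhlha15 0.9740, Rbpjl 0.9605 and Nr5a2 0.9002. The points of each correlation are 6 libraries in 2 groups, so that any gene with a group difference tends to a high value, and no test was made.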

How the data were processed

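RNA from 6 whole pancreata was sequenced by the authors as 50-nt single-end reads. Per the labels' processing notes, they used TopHat2 2.0.4, Bowtie 0.12.7.0, SAMtools 0.1.18.0 and HTSeq 0.6.0 with build mm9, and per the study's methods edgeR with TMM. The values they deposited are a signal: normalized read counts with decimals, from which whole reads could not be recovered. The count test planned after the study was therefore not used.

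Values were divided by 13.6393, log2(value + 0.25) was taken, and limma 3.58.1 (R 4.3.3, lmFit, eBayes with trend, two-sided) compared 3 Ptf1a cKO with 3 control libraries over 10245 genes. Benjamini-Hochberg adjusted p under 0.05 was the threshold, and a minimum mean of 0.25 removed no gene. Fold changes refer to these log2 values, pseudocount included, which understates the change of low genes. The 3 entries without a gene, 75.7% to 82.6% of a library, were kept out. Shares, lengths, ratios and figures were made with Python 3.11.15, pandas 2.3.3 and matplotlib 3.10.9. The fit was tested on simulated data.

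Lengths and 50-base words came from GENCODE transcripts and promoters from RefSeq (GRCm38.p6), matched by symbol, 5 of 6 for promoters. The genes, the lists and the 3 reference enzymes were chosen with earlier results of these data known. Named genes are the 6 enzymes, listed proteases and inhibitors past the threshold, regulators, and the 5 most and least alike genes. Tcf12 and the genes named as not called, as markers or as references were added after their values were seen. Alternatives covered pseudocount, filter, scaling, fit, sex, block, threshold and single libraries.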

Additional observations from a re-analysis of the deposited data

How the results depend on the processing

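All 6 enzyme genes kept a lower value in Ptf1a cKO pancreata under every alternative run, and the number called ranged from 4 to 6. Leaving out each library in turn gave 4 to 6 called of the 6, a median log2 fold change of -2.73 to -2.16, a share difference of -17.8 to -12.9 percentage points, 9 to 12 separated ratios and 2363 to 3601 called genes of all. For other serine proteases it gave 8 to 13 lower and 11 to 12 higher, and for inhibitors 4 to 5 lower and 4 to 6 higher. With libraries scaled to equal totals, 9716 genes were called, with 6 other proteases lower and 22 higher, 3 inhibitors lower and 14 higher, and a median of -1.02 for the 6 enzymes beside 1.48 for all genes; the construction shifts all genes up in the mutants, and Nr5a2 turned to 0.43 (limma adjusted p = 0.101). At an adjusted p under 0.01, 1794 genes and 2 higher inhibitors were called, and with a mean of at least 5 there were 3 higher inhibitors. The share difference was -4.51 percentage points with all entries without a gene in the total and -4.55 with the non-unique entry only, since these entries exceed the genes. Deviations of same-numbered libraries correlated at 0.0391, 0.134 and 0.144, so the numbers were not taken as pairs. A fit with the replicate number as a block called 5 of the 6 enzyme genes, with Ctrb1 at limma adjusted p = 0.0984, and 12 other proteases lower. Count models were not run because whole reads could not be recovered. With 3 mice per group, no exact test could pass 0.05, and counting error cannot be derived from the normalized values.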
